A study of Homo sapiens with 9 samples.

Results

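The genes of cytosolic and endosomal double-stranded RNA sensing were taken by name from the gene table of each library: DDX58, IFIH1, DHX58, TLR3, MAVS, ZBP1, EIF2AK2, ADAR, TBK1 and IKBKE, 10 of 23284 gene symbols. They were chosen for their function, with earlier results of these data known. The cells were HT-29, a single human colon cancer cell line, grown as 9 separate cultures, and mRNA from each culture was sequenced. Groups of 3 biological replicates were compared: vehicle control (dimethyl sulfoxide, 0 µM), 5 µM and 10 µM 5-Aza, each for 5 days. 5-Aza (5-aza-deoxy-cytidine) is a nucleoside that is built into DNA and traps DNA methyltransferases, so that methylation is lost as cells divide. Methylation, double-stranded RNA and protein were not measured in the tables used here.

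Cells detect double-stranded RNA, usually a product of viral replication, with sensors in the cytosol and in endosomes. RIG-I (DDX58) and MDA5 (IFIH1) are helicases that bind such RNA in the cytosol and signal through MAVS, an adaptor on the mitochondrial surface, to the kinases TBK1 and IKKε (IKBKE), which phosphorylate the transcription factors IRF3 and IRF7 and so switch on interferon genes. TLR3 does the same from the endosome through the adaptor TICAM1. PKR (EIF2AK2) stops translation when it binds double-stranded RNA, ZBP1 senses Z-form nucleic acid, and ADAR edits adenosine to inosine within double-stranded RNA, which keeps the cell's own transcripts from being sensed. In cells treated with DNA methyltransferase inhibitors this pathway is known for sensing transcripts of reactivated endogenous retroviruses, a response called viral mimicry. Several of the sensors are themselves interferon-stimulated genes.

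Promoter sequence is shown here for members that differ in a motif bound by interferon-activated factors. Windows from 250 bases before to 50 bases after the RefSeq start (GRCh38.p14) were held for 8 of the 10 genes. They were searched on both strands for GAAANNGAAA, the core of the interferon-stimulated response element, which 3.57% of all 35116 windows contained. IFIH1 had 3 matches, EIF2AK2 and TLR3 had 1 each, and DDX58, MAVS, ADAR, TBK1 and IKBKE had none. The shorter form AANNGAAA, which overlaps the first motif and was found in 22.8% of all windows, was present in DDX58 (3 matches), IFIH1 (4), EIF2AK2 (1), TLR3 (1) and IKBKE (1). Each stretch below is 60 bases long, reads 5′ to 3′ on the strand of the gene, and was found once in GRCh37, the build of the deposited tables. Capitals mark GAAANNGAAA on either strand in the first 3, AANNGAAA in DDX58 and every CG dinucleotide in MAVS. The stretch from DDX58 runs from 227 to 168 bases before the start, and each of the others from 50 bases before it to 10 bases past it.
IFIH1 (chr2:163175185-163175244, minus strand): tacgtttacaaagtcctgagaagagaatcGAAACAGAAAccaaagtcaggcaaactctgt
EIF2AK2 (chr2:37384114-37384173, minus strand): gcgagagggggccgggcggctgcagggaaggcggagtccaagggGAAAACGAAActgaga
TLR3 (chr4:186990260-186990319, plus strand): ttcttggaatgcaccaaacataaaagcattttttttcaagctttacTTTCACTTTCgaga
DDX58 (chr9:32526362-32526421, minus strand): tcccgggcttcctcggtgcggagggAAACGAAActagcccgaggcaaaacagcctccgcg
MAVS (chr20:3827431-3827490, plus strand): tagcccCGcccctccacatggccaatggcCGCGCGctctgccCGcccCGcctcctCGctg
The windows also differed in CG dinucleotides, the sites that DNA methyltransferases act on. TBK1 held 35, MAVS 34, EIF2AK2 30 and DDX58 27 CG dinucleotides in 300 bases, against a median of 14 over all windows. ADAR held 13 or 14 in its 3 windows, IFIH1 12, and TLR3 and IKBKE 5 each. A match to a motif is a description of the letters and not of a bound factor. In the test at 5 µM given below, IFIH1 and EIF2AK2, with a GAAANNGAAA match, passed upward, and TLR3, also with a match, did not. DDX58, TBK1 and IKBKE, without such a match, passed upward, and MAVS and ADAR, also without it, did not. A link between motif and change was not tested.

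Gene positions are those of GENCODE on GRCh37, where DDX58 is listed as RIGI. Levels are given as deposited and are called FPKM, by definition fragments scaled to transcript length and to mapped fragments. They are written in kFPKM, 1 kFPKM being 1000 FPKM. The deposited values added up to 3692 to 5908 M FPKM per library (M, 1000000), so they can be read as ratios between genes and libraries but not against FPKM from other work. Estimated depth was 11.1 to 30.4 M fragments per library. For a gene of 110 nt, 1 fragment was worth 2484690 FPKM in control replicate 1 (14.8 M fragments). In 10 µM replicate 1 (11.1 M fragments) it was worth less, 1955030 FPKM. The deposited scale between libraries therefore did not follow mapped fragments as estimated here. Differences are log2 fold changes of FPKM + 1 with their standard error (SE), tested with limma over all genes that reached 10 FPKM in either group and adjusted by the Benjamini-Hochberg method. A gene passed the test at an adjusted p of 0.05 or less and was called when it also changed more than 2-fold. The 5 µM and 10 µM comparisons share the control libraries, and the 10 against 5 µM comparison shares the 5 µM libraries. In whole cultures, a change in every cell and a change in some of the cells cannot be told apart.

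Before the results, the libraries were looked at as a whole. Replicate 2 at 10 µM was the highest 10 µM library for all 10 genes, and for 66.1% of the 15278 genes above 0 in every library. After scaling by the median of ratios between libraries it was still the highest for 8 of the 10, against 34.1% of genes. Control replicate 3 was the lowest control for 8 of the 10 genes and for 53.3% of all. The median log2 fold change of genes above 0 in all 6 libraries was -0.037 for 5 against 0 µM, -0.24 for 10 against 5 µM and -0.23 for 10 against 0 µM. Median-of-ratios scaling brought these to 1.9e-05, -0.036 and 0.0055, and scaling to one total per library brought them to 0.25, -0.15 and 0.14. All 11 epithelial marker genes were above 0 at every dose. Their summed FPKM was 90264 to 108558 kFPKM in controls, 37692 to 42351 kFPKM at 5 µM and 29614 to 52075 kFPKM at 10 µM, led by the keratins KRT8 and KRT18. CEACAM5 and CDX1 went the other way at 5 µM, from 177 to 217 kFPKM in controls to 520 to 626 kFPKM for CEACAM5 and from 3.42 to 4.35 kFPKM to 15.2 to 19.0 kFPKM for CDX1, and the CDH1 groups overlapped (2102 to 2158 and 1852 to 2253 kFPKM). Of the leukocyte markers, PTPRC was at most 0.983 kFPKM and CD3E at most 0.912 kFPKM in any library. The summed leukocyte list was 8690 to 8941 kFPKM in controls, 4575 to 5436 kFPKM at 5 µM and 4736 to 6885 kFPKM at 10 µM, most of it LYZ, and CD3E was listed at 0 in all controls. Against that sum, CD68 was at 122 to 129 kFPKM in controls and 653 to 690.4 kFPKM at 5 µM, and ITGAM at 0.446 to 1.35 and 8.03 to 11.8 kFPKM. Summed fibroblast markers were 5.63 to 9.46 kFPKM in controls, 34.3 to 47.8 kFPKM at 5 µM and 19.0 to 24.9 kFPKM at 10 µM, most of it COL1A1. The 3 endothelial markers summed to 1.90 to 5.03, 9.79 to 12.4 and 3.27 to 3.59 kFPKM at the 3 doses, with CDH5 listed at 0 in all controls. The part of these shifts in the results below was not tested.

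At 5 µM, 7 of the 10 genes rose against control, and no value at 5 µM overlapped a control value in any of them: ZBP1, IFIH1, DDX58, DHX58, EIF2AK2, TBK1 and IKBKE. Over all 20051 genes tested, 21.3% passed the test upward and 29.4% did not overlap upward, with 17.7% and 23.2% downward. 8 of the 10 estimates were above 0, beside 57.1% of all genes. ZBP1 and IFIH1 also passed the 2-fold limit, as did 14.1% of all genes upward and 2.17% downward. TLR3, MAVS and ADAR did not pass. When 1 library at a time was left out, 3 to 6 of the 10 passed upward, the fewest without 5 µM replicate 3 (DHX58, IFIH1 and TBK1). The median log2 fold change of the 10 genes was 0.53, beside 0.14 for all genes tested. The limit of 10 FPKM removed few genes, as 20115 were tested without it, so all genes tested include many with few fragments. With at least 10 estimated fragments, 3546 of 14020 genes passed upward and 3366 downward, and their median was 0.014. The same 7 of the 10 genes passed with that filter. At 10 µM, all 10 estimates were below those at 5 µM, but none passed the test on the values as deposited, and none passed against control. DDX58 and IFIH1 passed downward from 5 to 10 µM under either scaling between libraries and with a filter of at least 10 estimated fragments. Against control at 10 µM, DHX58 and ZBP1 passed upward under either scaling and TBK1 under total scaling.

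**Figure D1:**
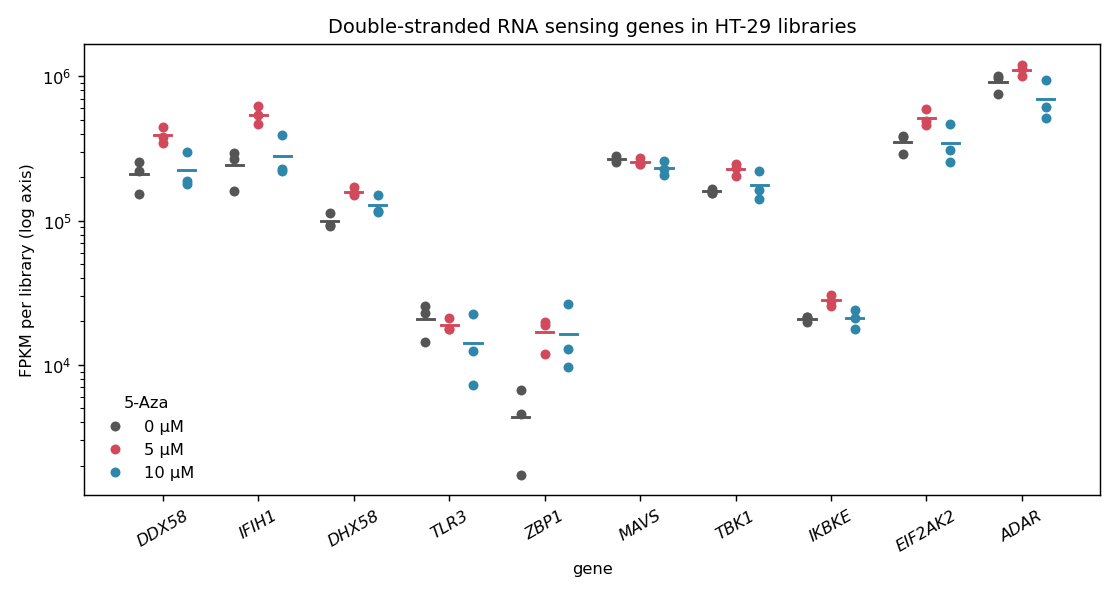
FPKM of each gene in the 9 libraries on a log axis, with 1 point per library, a short line at the mean of 3 replicates, and colour for the 5-Aza dose. ZBP1 was the lowest gene in control, at 1.73 to 6.72 kFPKM, and ADAR the highest at every dose. MAVS lay between 206 and 278 kFPKM in all 9 libraries.

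Among the cytosolic helicases, IFIH1 (chr2:163123584-163175194, minus strand), the sensor of long double-stranded RNA, changed the most. It measured 294, 268 and 160.5 kFPKM in control replicates 1 to 3, 464, 623 and 535 kFPKM at 5 µM, and 221, 392 and 227 kFPKM at 10 µM. Every 5 µM library was above every control and every 10 µM library, while the 10 µM and control libraries overlapped. The 5 µM level was 2.30 times that of control (log2 fold change 1.20, SE 0.24, limma adjusted p = 0.00995). From 5 to 10 µM the log2 fold change was -0.99 (SE 0.25, limma adjusted p = 0.0644), and from 0 to 10 µM it was 0.21 (adjusted p = 0.616). Without control replicate 3, the lowest, the 5 µM change was 0.94 and IFIH1 was no longer called. Without 10 µM replicate 2, the highest, the change from 5 to 10 µM was -1.26 (limma adjusted p = 0.00667) and IFIH1 was called. The change from 5 to 10 µM also passed at -0.79 after median-of-ratios scaling (limma adjusted p = 0.0339), at -0.90 after total scaling (adjusted p = 0.0192) and with the fragment filter (adjusted p = 0.0375).

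DDX58 (chr9:32455300-32526206, minus strand), or RIG-I, binds short double-stranded RNA with a 5′ triphosphate. It measured 254, 220.4 and 152 kFPKM in control, 343, 444 and 381 kFPKM at 5 µM, and 189, 298 and 179.6 kFPKM at 10 µM. The 5 µM libraries again stood above all the others. The rise at 5 µM was 1.90-fold (log2 fold change 0.92, SE 0.20, limma adjusted p = 0.0138), short of the 2-fold limit. DDX58 was past that limit and called under total scaling (1.21), without control replicate 1 (1.08) and without 5 µM replicate 1 (1.01). The log2 fold change from 5 to 10 µM was -0.84 (SE 0.22, limma adjusted p = 0.0742) and became -1.07 (adjusted p = 0.00810) without 10 µM replicate 2, whereas 10 µM differed from control by 0.085 (adjusted p = 0.834). The 5 µM rise of DDX58 no longer passed when 5 µM replicate 2 or 3 was left out (limma adjusted p = 0.0572 and 0.0558). From 5 to 10 µM DDX58 passed at -0.64 after median-of-ratios scaling (limma adjusted p = 0.0406), at -0.75 after total scaling (adjusted p = 0.0238) and with the fragment filter (adjusted p = 0.0459).

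DHX58 (chr17:40253422-40264732, minus strand), or LGP2, is the third RIG-I-like helicase, which lacks the signalling domain and modulates the other two. It measured 112, 93.2 and 91.6 kFPKM in control, 171, 156 and 149 kFPKM at 5 µM, and 117, 151 and 115 kFPKM at 10 µM. Both treated groups lay wholly above the control group, and the treated groups overlapped each other. DHX58 rose 1.61-fold at 5 µM (log2 fold change 0.69, SE 0.10, limma adjusted p = 0.00328), and it passed this test under all 18 other settings and left-out libraries. Among these, dropping the fold limit leaves the p unchanged, and the treatment of repeated symbols does not touch this gene. At 10 µM its log2 fold change against control was 0.36 (limma adjusted p = 0.149), and from 5 to 10 µM it was -0.32 (adjusted p = 0.227). After median-of-ratios scaling, DHX58 was among the genes that passed against control at 10 µM.

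The ratio of IFIH1 to DDX58 FPKM was 1.06 to 1.22 in control, 1.35 to 1.40 at 5 µM and 1.17 to 1.31 at 10 µM. The 5 µM range did not overlap the other ranges, while the 10 µM and control ranges overlapped. The ratio of DHX58 to IFIH1 was 0.348 to 0.571 in control, 0.250 to 0.368 at 5 µM and 0.384 to 0.528 at 10 µM, so that both treated ranges overlapped control. Because both genes come from the same library, such a ratio does not depend on scaling between libraries. The ratio of IFIH1 to its adaptor MAVS was 0.636 to 1.06 in control, 1.87 to 2.52 at 5 µM and 0.972 to 1.52 at 10 µM.

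**Figure D2:**
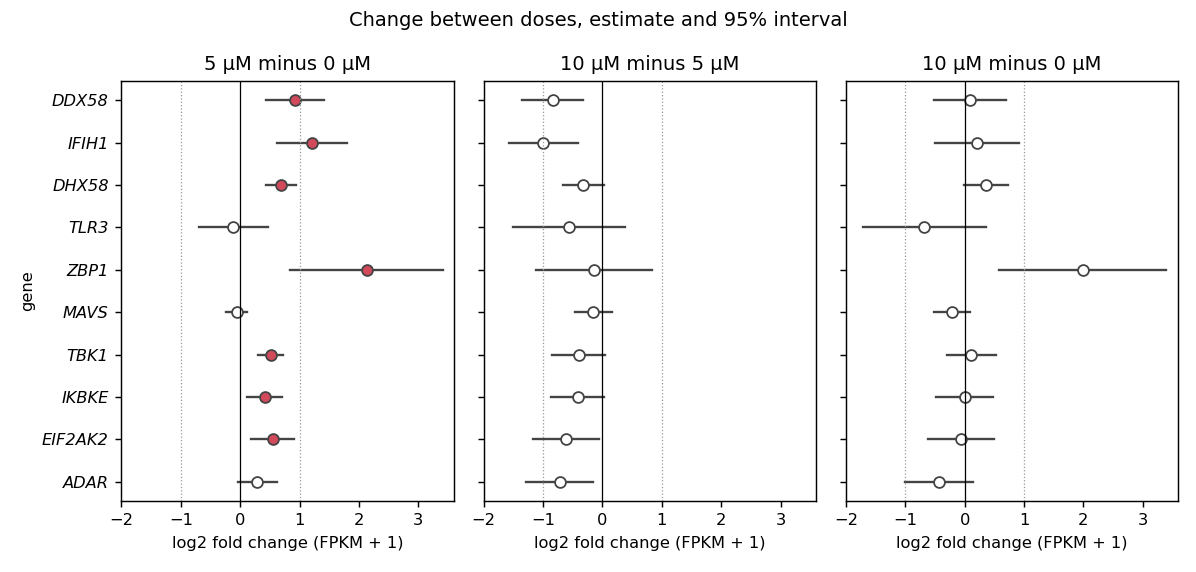
Log2 fold change of each gene with its 95% interval in the 3 comparisons. Filled points passed the test at an adjusted p of 0.05, and dotted lines mark a 2-fold change. 7 points are filled for 5 against 0 µM and none in the other comparisons, where all 10 estimates for 10 against 5 µM lie below 0.

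ZBP1 (chr20:56178902-56195632, minus strand), which recognises Z-form RNA and DNA and can start necroptosis through RIPK3, was the lowest gene in control and had the largest estimate. It measured 6.72, 4.59 and 1.73 kFPKM in control, 19.8, 18.9 and 11.9 kFPKM at 5 µM, and 12.9, 26.6 and 9.64 kFPKM at 10 µM. All 6 treated libraries were above all 3 controls, and the doses overlapped. These levels rest on few reads, an estimated 8.9 to 16.7 fragments per control library, 73.5 to 114 at 5 µM and 39.4 to 128 at 10 µM. ZBP1 rose 4.37-fold at 5 µM (log2 fold change 2.13, SE 0.53, limma adjusted p = 0.0220). The test was not passed without any one of the 5 µM libraries (limma adjusted p = 0.0517 to 0.0861). At 10 µM the estimate against control was of similar size, 1.99 (SE 0.60), with a limma adjusted p of 0.0640, and the adjusted p ranged from 0.0255 to 0.142 over the other settings. From 5 to 10 µM the log2 fold change was -0.14 (95% interval -1.12 to 0.83, limma adjusted p = 0.847). ZBP1 turned to 0.061 there after median-of-ratios scaling, so no direction between the doses can be given.

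TLR3 (chr4:186990065-187009227, plus strand), the endosomal receptor, did not follow the helicases. It measured 25.6, 22.9 and 14.4 kFPKM in control, 17.7, 21.1 and 17.8 kFPKM at 5 µM, and 12.5, 22.4 and 7.29 kFPKM at 10 µM. All 3 groups overlapped. The log2 fold change was -0.11 at 5 µM (95% interval -0.70 to 0.47, limma adjusted p = 0.721), -0.57 from 5 to 10 µM (adjusted p = 0.408) and -0.68 for 10 against 0 µM (adjusted p = 0.300). The 2 lowest values were 10 µM replicates 3 and 1. Without 10 µM replicate 3 the TLR3 estimates were -0.17 from 5 to 10 µM and -0.28 for 10 against 0 µM, and without 10 µM replicate 2 they were -0.98 and -1.09, and none of these passed. Under scaling to one total per library, the 5 µM estimate of TLR3 turned to 0.17.

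MAVS (chr20:3827446-3856770, plus strand), through which RIG-I and MDA5 signal, was nearly level. It measured 278, 267 and 253 kFPKM in control, 248, 247 and 273 kFPKM at 5 µM, and 227, 259 and 206 kFPKM at 10 µM. The 5 µM values lay within or just below the control range. The log2 fold change at 5 µM was -0.058, with a 95% interval from -0.23 to 0.11 (limma adjusted p = 0.525), which leaves out a rise of the size seen for DDX58 or IFIH1. It was -0.15 from 5 to 10 µM and -0.21 from 0 to 10 µM (limma adjusted p = 0.502 and 0.274). MAVS turned to 0.23 at 5 µM under total scaling, where it passed (limma adjusted p = 0.0425), and to 0.050 between the doses under median-of-ratios scaling.

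The kinases downstream of MAVS rose by less than the helicases. TBK1 (chr12:64845870-64895894, plus strand), which is expressed in most cell types, measured 155, 166 and 156 kFPKM in control, 203, 247 and 233 kFPKM at 5 µM, and 163, 221 and 141 kFPKM at 10 µM. The 5 µM libraries were above every control, and the 10 µM libraries as deposited fell on both sides of the control range. After median-of-ratios scaling, all 10 µM values of TBK1 (166112 to 211446 FPKM) were above its controls (142425 to 153212 FPKM). TBK1 rose 1.43-fold at 5 µM (log2 fold change 0.51, SE 0.088, limma adjusted p = 0.00535). It also passed this test under all 18 other settings, including those named for DHX58 that could not alter the result. Its log2 fold change was -0.40 from 5 to 10 µM (limma adjusted p = 0.233) and 0.11 for 10 against 0 µM (adjusted p = 0.651).

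IKBKE (chr1:206643819-206670222, plus strand), the inducible relative of TBK1, was expressed at a far lower level. It measured 21.3, 20.0 and 21.5 kFPKM in control, 30.5, 25.6 and 27.8 kFPKM at 5 µM, and 17.8, 24.1 and 21.2 kFPKM at 10 µM. Its 5 µM libraries were above all others. IKBKE rose 1.33-fold at 5 µM (log2 fold change 0.42, SE 0.12, limma adjusted p = 0.0367), with an adjusted p between 0.00903 and 0.106 over the other settings. At 10 µM no difference from control was resolved on the values as deposited (log2 fold change -0.0019, 95% interval -0.48 to 0.48). After median-of-ratios scaling, its 10 µM values (21556 to 24911 FPKM) were all above its controls (18450 to 20875 FPKM), and it did not pass. The ratio of TBK1 to IKBKE was 7.26 to 8.30 in control, 6.67 to 9.68 at 5 µM and 6.67 to 9.17 at 10 µM, with all groups overlapping.

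EIF2AK2 (chr2:37326353-37384665, minus strand) encodes PKR, which phosphorylates the translation factor eIF2α. It measured 384, 381 and 289 kFPKM in control, 457, 595 and 487 kFPKM at 5 µM, and 308, 466 and 256 kFPKM at 10 µM. Every 5 µM library was above every control, and 10 µM replicate 2 reached into the 5 µM range. EIF2AK2 rose 1.46-fold at 5 µM (log2 fold change 0.55, SE 0.15, limma adjusted p = 0.0297) and did not pass without any one of the 5 µM libraries (limma adjusted p = 0.0516 to 0.0864). With all libraries kept, it also did not pass in 1 fit of all 9 libraries (limma adjusted p = 0.0974) or without the intensity trend (adjusted p = 0.0692). The log2 fold change was -0.62 from 5 to 10 µM (limma adjusted p = 0.170) and -0.066 for 10 against 0 µM (adjusted p = 0.865), where scaling by the median of ratios turned it to 0.18.

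ADAR (chr1:154554171-154600489, minus strand), the adenosine deaminase that marks the cell's own double-stranded RNA, had the highest level of the 10 at every dose. It measured 1006, 977 and 750.1 kFPKM in control, 995, 1113 and 1205 kFPKM at 5 µM, and 616, 942 and 516 kFPKM at 10 µM. The 5 µM and control groups overlapped by the lowest 5 µM and the highest control library, while every 10 µM library was below every 5 µM library. The log2 fold change was 0.29 at 5 µM (95% interval -0.046 to 0.62, limma adjusted p = 0.141), -0.72 from 5 to 10 µM (SE 0.24, adjusted p = 0.129) and -0.43 for 10 against 0 µM (adjusted p = 0.243). Under total scaling ADAR passed at 5 µM, at 0.57 (limma adjusted p = 0.00585). Without 10 µM replicate 2, the highest, ADAR passed downward from 5 to 10 µM at -0.97 (limma adjusted p = 0.0118) and for 10 against 0 µM at -0.68 (adjusted p = 0.0294). The files list 1 value for ADAR, so its constitutive short form and its interferon-inducible long form were not separated. The ratio of EIF2AK2 to ADAR, an RNA-activated kinase to the enzyme that edits such RNA, was 0.382 to 0.390 in control, 0.404 to 0.534 at 5 µM and 0.495 to 0.501 at 10 µM. All 6 treated libraries had a higher ratio than the 3 controls.

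**Figure D3:**
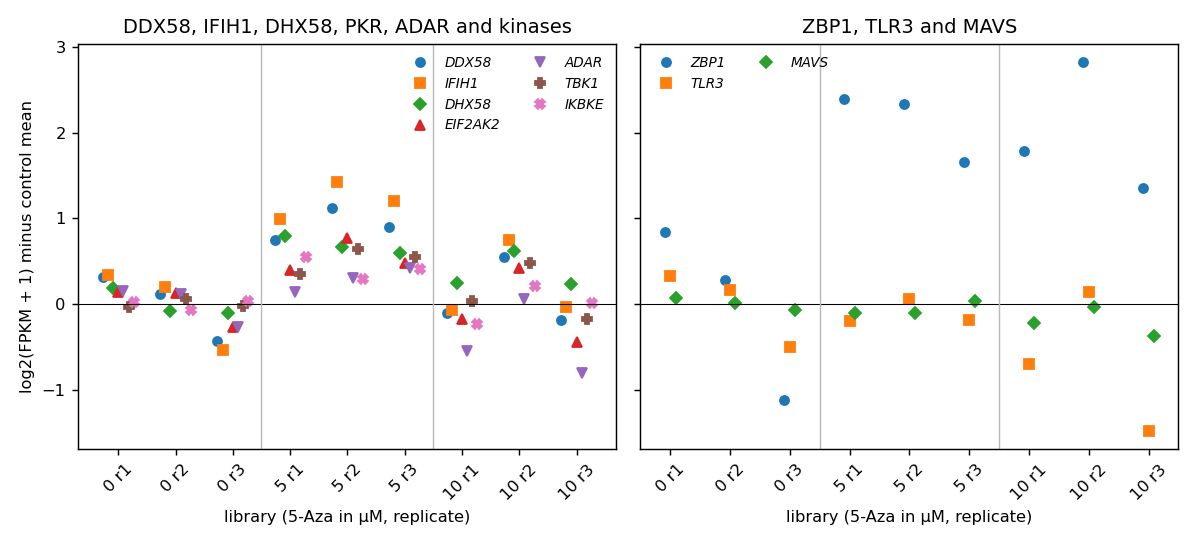
Log2(FPKM + 1) of each gene minus its control mean, with 1 point per gene and library. Replicate 2 at 10 µM lies above the other 10 µM libraries for all 10 genes. ZBP1 is above its controls in all 6 treated libraries, and MAVS stays close to 0.

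For the change from 5 to 10 µM, 4 of the 10 genes did not overlap and were lower (DDX58, IFIH1, ADAR and IKBKE), beside 25.3% of the 20085 genes tested. All 10 estimates were negative, where 24.4% of all genes had a positive one. None passed the test downward or upward, beside 5.85% and 0.319% of all genes, or 4.82% and 0.129% with the 2-fold limit. At an unadjusted p under 0.05, limma gave 4 lower (DDX58, IFIH1, ADAR and EIF2AK2), beside 22.0% of all genes, and none higher, beside 2.84%. The median over the 10 genes was -0.49 and that over all genes tested was -0.31. Without 10 µM replicate 2, 6 of the 10 passed downward (ADAR, DDX58, DHX58, EIF2AK2, IFIH1 and TBK1), and DDX58 and IFIH1 were called.

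For 10 µM against control, 2 of the 10 genes were higher without overlap (DHX58 and ZBP1), beside 14.4% of the 18928 genes tested, and 5 estimates were above 0, beside 42.1%. None passed the test, beside 5.39% of all genes upward and 9.71% downward (4.07% and 3.4% with the 2-fold limit). ZBP1 alone had an unadjusted limma p under 0.05, beside 11.3% of all genes upward and 24.2% downward. The median over the 10 genes was 0.042 and that over all genes was -0.15. With 3 libraries against 3, an exact two-sided permutation test cannot give less than 0.1, which it gave for each gene whose groups did not overlap.

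The order of the genes by level per transcript length also differed between doses. In control it ran ADAR, EIF2AK2, MAVS, IFIH1, DDX58, TBK1, DHX58, IKBKE, TLR3 and ZBP1. ADAR, EIF2AK2, TBK1, DHX58 and TLR3 were each above every value of the next gene. MAVS, IFIH1, DDX58 and TBK1 overlapped in turn, as did IKBKE and TLR3. At 5 µM IFIH1 stood second, overlapping EIF2AK2, and DDX58 followed EIF2AK2, above every MAVS value. There ZBP1 overlapped TLR3, from which it was separated in control. At 10 µM the neighbours from EIF2AK2 down to DHX58 all overlapped, and ZBP1 stood above TLR3 by its mean, with overlap.

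The genes around these sensors were counted from 8 lists holding 137 different genes. Of the 130 tested at 5 µM, 12 were called up and 2 down, beside 14.1% and 2.17% of all genes, and 28 and 30 passed the test up and down, beside 21.3% and 17.7%. Of the 18 regulators of RIG-I-like receptors, 1 passed upward and 6 downward at 5 µM, beside the same 21.3% and 17.7%. DDX60, a helicase that promotes the signalling of these receptors, was called up. RNF125, a ubiquitin ligase that marks RIG-I for degradation, was called down. DDX60 measured 101.7, 87.2 and 56.1 kFPKM in control and 172, 234 and 204 kFPKM at 5 µM (log2 fold change 1.35, SE 0.24, limma adjusted p = 0.00577). RNF125 fell from 32.8 to 36.5 kFPKM in control to 11.4 to 16.2 kFPKM at 5 µM (log2 fold change -1.29, SE 0.17, limma adjusted p = 0.00181), and was again called at 10 µM against control, at -1.08 (adjusted p = 0.0197). TRIM25, the ligase that activates RIG-I, was at 0.057 (limma adjusted p = 0.717), and the median of the list was -0.19.

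Of the 30 genes of the MAVS complex and its downstream arm, 10 passed upward and 7 downward at 5 µM, beside 21.3% and 17.7% of all genes. The median of the list was 0.054. NLRC5, the transactivator of MHC class I genes, measured 18.3, 15.9 and 10.1 kFPKM in control, 102, 89.6 and 92.9 kFPKM at 5 µM, and 54.8, 69.4 and 41.7 kFPKM at 10 µM. The 3 groups did not overlap, with 5 µM highest and control lowest. NLRC5 was called at 5 µM (log2 fold change 2.73, SE 0.23, limma adjusted p = 0.000475) and at 10 µM (1.92, SE 0.29, adjusted p = 0.0111). TBKBP1, an adaptor that binds TBK1, was called at both doses (2.29 and 1.82, limma adjusted p = 0.000923 and 0.0213). Its controls held an estimated 9.5 to 17.5 fragments per library. TNFAIP3, or A20, an inhibitor of NF-κB, was called at 5 µM (1.85, limma adjusted p = 0.00169). In FPKM, the transcription factors IRF7 and IRF3 rose at 5 µM by 0.59 and 0.39 (limma adjusted p = 0.0111 and 0.0151). The rise of IRF7 was not borne out by the qRT-PCR that the authors ran on the same RNA samples. Their qRT-PCR estimate for IRF7 at this dose pointed downward and was not significant, while their microarray and RNA-Seq estimates pointed upward. NFKBIA, the inhibitor that holds NF-κB in the cytosol, rose by 0.93 at 5 µM (limma adjusted p = 0.000670) and was 1 of the 2 listed genes called down from 5 to 10 µM, at -1.20 (adjusted p = 0.0120). RIPK1 was at -0.13 at 5 µM (limma adjusted p = 0.197). The whole list had 1 gene passing between the doses, downward, beside 5.85% of all genes.

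In the endosomal list of 15 genes, 4 passed upward and 3 downward at 5 µM, beside 21.3% and 17.7% of all genes. CTSL1, a lysosomal protease, rose by 1.55 at 5 µM (SE 0.20, limma adjusted p = 0.00178). TLR8, a receptor for single-stranded RNA, was listed at 0 in all controls and at 0.167 to 0.475 kFPKM at 5 µM, an estimated 1.8 to 5.4 fragments. TICAM1, the adaptor of TLR3, fell by 0.44 at 5 µM (SE 0.092, limma adjusted p = 0.0112), and all its 5 µM values were below all its controls. Over the 13 genes of this list above 0 in both groups the median was 0.045.

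Of the 16 PKR partners and eIF2 kinases, none was called at any dose. 1 passed upward and 4 downward at 5 µM, beside 21.3% and 17.7% of all genes. The median was -0.20 at 5 µM and -0.53 at 10 µM against control. PRKRA, or PACT, a protein activator of PKR, fell by 0.34 at 5 µM (limma adjusted p = 0.0444) and by 0.56 at 10 µM against control (adjusted p = 0.0350). EIF2S1, the eIF2α subunit that PKR phosphorylates, was at -0.31 at 5 µM (limma adjusted p = 0.0885).

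Of the 16 genes of RNA editing and double-stranded RNA processing, 5 passed upward and 3 downward at 5 µM, beside 21.3% and 17.7% of all genes. SAMHD1, a nucleotide hydrolase that limits viral replication, rose by 1.27 at 5 µM (SE 0.24, limma adjusted p = 0.00774). ADARB1, the second active editing enzyme, rose by 0.46 (limma adjusted p = 0.0379). ADAD2, a deaminase-domain gene expressed in testis, was called up and was listed at 0 in all controls and at 2.39 to 5.00 kFPKM at 5 µM. Its relative ADAD1 was called down from 5 to 10 µM, where all 3 libraries were listed at 0. Few reads lie behind both calls. For ADAD2, the count worked out for 5 µM replicates 1 to 3 was 27.2, 12.4 and 17.3 fragments. For ADAD1 the same libraries held about 9.9, 14.1 and 2.8, and its controls 1.0, 0 and 0. Every 10 µM library was also shallower than every 5 µM library. The part of depth in the ADAD1 call was not tested. In the list for Z-nucleic acid cell death, 3 of 11 genes passed upward and 2 downward at 5 µM, beside 21.3% and 17.7% of all genes. The necroptosis genes RIPK3 and MLKL rose by 0.40 and 0.46 (limma adjusted p = 0.0318 and 0.0153), and NLRP3, an inflammasome sensor, by 2.02 (adjusted p = 0.0154) from an estimated 3.0 to 7.9 fragments per control library. In the list for cytosolic DNA sensing, 2 of 14 passed upward and 5 downward, beside the same 21.3% and 17.7%. RNASEH2A, the catalytic subunit of RNase H2, rose by 1.28 (limma adjusted p = 0.00423), and POLR3B, a subunit of RNA polymerase III, fell by 1.18 on the log2 scale (adjusted p = 0.000621). At 10 µM against control POLR3B was called again (-1.27, limma adjusted p = 0.0208), together with ENPP1, which degrades the messenger cGAMP (-1.81, adjusted p = 0.0498). The DNA sensor MB21D1 (cGAS) and its adaptor TMEM173 (STING) were at 0.16 and -0.081 at 5 µM (limma adjusted p = 0.396 and 0.586).

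**Figure D4:**
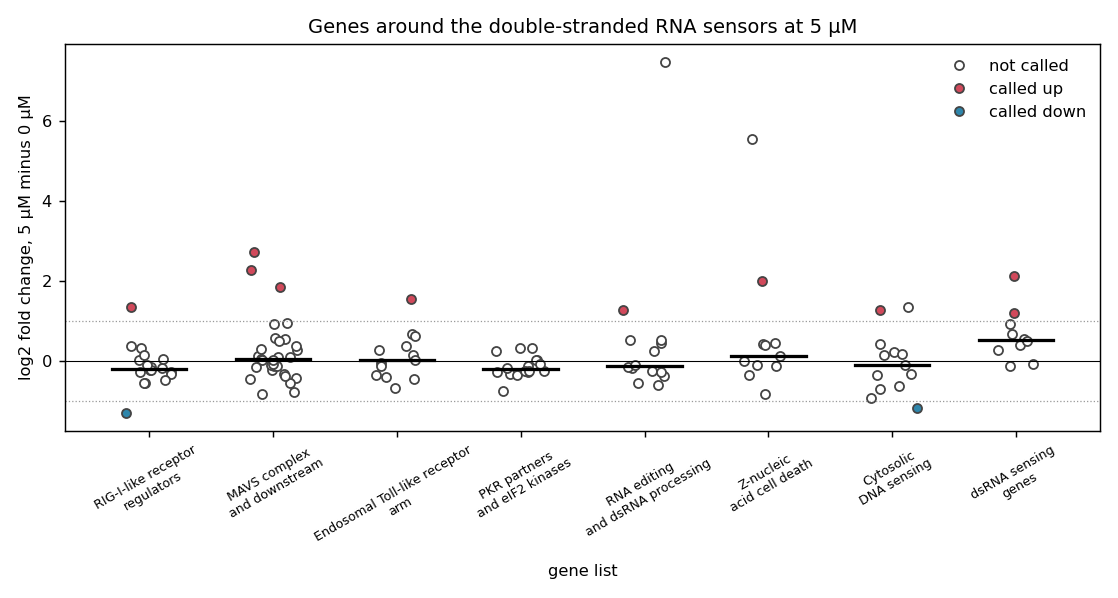
Log2 fold change at 5 µM against control for genes of 7 lists and for the 10 sensing genes, with 1 point per gene, a bar at the median and dotted lines at a 2-fold change. Genes listed at 0 in all libraries of either group are left out. The median of the sensing genes is 0.53, and those of the lists lie between -0.20 and 0.13.

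Apart from IFNE, the interferon genes were at 0 or near the limit of detection, with at most an estimated 24.8 fragments in any library (IL29). Of 21, 7 were above 0 in any control library, 14 in any 5 µM library and 8 in any 10 µM library. Detection differed over all genes too, with 16373 to 16958 symbols above 0 per control library, 18761 to 18957 at 5 µM and 17114 to 17592 at 10 µM. Estimated depth was 14.8 to 27.7 M fragments in controls, 26.0 to 30.4 M at 5 µM and 11.1 to 24.1 M at 10 µM. The part of depth in these counts was not tested. IFNB1, which encodes interferon β, was listed at 0 in all 3 controls, at 2.53, 3.19 and 3.78 kFPKM at 5 µM, and at 0, 2.42 and 11.4 kFPKM at 10 µM. These are an estimated 5.7, 6.9 and 9.2 fragments at 5 µM and 4.6 and 18.3 in the 10 µM libraries above 0. IFNB1 was called at 5 µM (limma adjusted p = 0.000343) and did not pass at 10 µM (adjusted p = 0.137). With all controls at 0, the pseudocount sets the size of the step at 5 µM, and the controls add no spread. The p at 5 µM therefore does not measure the counting error of so few fragments. IL28B, a type III interferon, was also listed at 0 in all controls and was above 0 in all 6 treated libraries, with an estimated 7.2 to 12.7 fragments at 5 µM and 1.6 to 5.6 at 10 µM. Its near copies share reads with it, so its values are uncertain. IL29, another type III interferon, was at 0, 4.72 and 1.11 kFPKM in control and 6.41, 12.5 and 5.53 kFPKM at 5 µM. Its 5 µM values were above its controls, but it did not pass (limma adjusted p = 0.197). IFNE, an interferon expressed in epithelia and named here after its values were seen, was at 138, 162 and 190 kFPKM in control, 97.8, 93.9 and 107 kFPKM at 5 µM, and 148, 104 and 124 kFPKM at 10 µM. Its 5 µM values were all below its controls, and the 10 µM and control groups overlapped. IFNE fell by 0.70 on the log2 scale at 5 µM (SE 0.13, limma adjusted p = 0.00656). No fold change is given against a group listed at 0.

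The genes whose pattern over the 9 libraries was closest to DDX58 included interferon-stimulated genes and IFIH1. Likeness was the root mean square difference of log2(FPKM + 1) after centring each gene on its mean, over 15250 genes. For DDX58 the nearest 5 included IFIT5 (0.080), LAP3 (0.13), IFIH1 (0.13) and SAMD9 (0.14). For IFIH1 they included OAS1 (0.12), DDX58 (0.13), DDX60 (0.14) and LAP3 (0.15). For EIF2AK2 they included MUC13 (0.075), TMEM159 (0.090) and TDRD7 (0.11). All 9 libraries enter this measure, including control replicate 3 and 10 µM replicate 2, so genes that share the level of these libraries are also drawn together.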

How the data were processed

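Total RNA of 9 HT-29 cultures was made into TruSeq libraries and sequenced as paired ends. The authors filtered reads with the FASTX-Toolkit, mapped them to hg19 with TopHat, and deposited 1 FPKM value per gene from Cufflinks for each library. Read counts were not used here. Each table held 24934 entries for 23284 symbols. Repeated symbols were summed, which touched none of the 10 genes. Groups and replicate numbers came from the labels. Pairs of groups were compared with limma 3.58.1 in R 4.3.3 (lmFit, eBayes with trend) on log2(FPKM + 1), over genes reaching 10 FPKM in either group. A call needed an adjusted p of 0.05 or less and a change over 2-fold. Fold changes of genes listed at 0 in a group depend on the pseudocount, and so do their p and calls. The method was tested on simulated data, where all 200 genes changed by a log2 of 2 were recovered in each of the 3 comparisons, with 0 false calls for 5 against 0 µM, 2 for 10 against 5 µM and 1 for 10 against 0 µM among 12287, 12386 and 11628 genes. Smaller changes, genes with few estimated fragments, genes at 0 in a group and outlying libraries were not simulated. Every simulated gene was given the same spread between replicates beyond counting. The counts of false calls therefore do not cover such genes or libraries. Alternatives were other pseudocounts, filters and scalings, 1 fit of all 9 libraries, a replicate block, no variance trend and each library left out.

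Fragments were estimated from the value of 1 fragment at microRNA genes of 110 nt and from transcript length. That value was the smallest above 0 in each library, which is a whole multiple of itself. With these smallest values counted, 46 of 46 values above 0 were whole multiples within 0.01. It was carried to longer genes by a median over 206 genes, of which 65.5% lay within 15% of that median, so single estimates are approximate. The value of 1 fragment differed up to 2.57-fold between libraries, and the estimates cover counting error only.

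The genes, lists and tests were chosen with earlier results of these data known. All 10 genes are named. From each list the genes called were named, at most 4 per list and comparison, with IRF3, IRF7, TICAM1, TRIM25, TMEM173, MB21D1, RIPK1, RIPK3, MLKL, PRKRA, EIF2S1, ADARB1, IFNB1 and IL29 always, and the 5 nearest profiles of DDX58, IFIH1 and EIF2AK2. Some genes that this rule selects are not reported here. The motifs were chosen after the values were known. Figures were drawn with matplotlib 3.10.9.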

Additional observations from a re-analysis of the deposited data

How the results depend on the processing

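Calls at 5 µM were few and some hung on 1 library. The 2 calls among the 10 genes became 1 without 5 µM replicate 2, 5 µM replicate 3 or control replicate 3 (range 1 to 3), and 7 when the fold limit was dropped. The lists then gave 28 up and 30 down, and 1 down under total scaling. From 5 to 10 µM, leaving out a library moved the calls down from 0 to between 0 and 2 among the 10 genes, and from 2 to between 1 and 11 in the lists, both highest without 10 µM replicate 2. The lists gave 4 down with no fold limit and 1 with median-of-ratios scaling. For 10 against 0 µM, 1 of the 10 genes (ZBP1) was called up with a pseudocount of 1000, with at least 10 estimated fragments, with all 9 libraries in one fit, with the replicate block, and with either scaling. The lists gave 5 up with no fold limit, with all 9 libraries in one fit and with median-of-ratios scaling, and 6 with total scaling. They gave 14 down with no fold limit, 1 with median-of-ratios scaling, 0 with total scaling, 1 without the intensity trend, and 0 to 11 when a library was left out. Of all calls for 10 against 0 µM, 54.5% were upward as deposited, 79.8% after median-of-ratios scaling and 89.3% after total scaling.

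Estimates near 0 turned sign. Total scaling at 5 µM turned TLR3 to 0.17, MAVS to 0.23, RIPK1 to 0.16 and TMEM173 to 0.21. Median-of-ratios scaling between the doses turned MAVS to 0.050, ZBP1 to 0.061, ADARB1 to 0.017 and TICAM1 to 0.053. For 10 against 0 µM, median-of-ratios and total scaling turned MAVS to 0.030 and 0.17, EIF2AK2 to 0.18 and 0.31, IKBKE to 0.24 and 0.38, and RIPK1 to 0.23 and 0.37. Leaving out 1 library gave 5 µM changes from -0.36 to 0.053 for TLR3 and -0.073 to 0.14 for TRIM25. Between the doses the ranges were -0.56 to 0.17 for ZBP1, -5.99 to 0.75 for IFNB1, -0.069 to 0.22 for IRF3, -0.059 to 0.095 for RIPK3 and -0.35 to 0.012 for TICAM1. For 10 against 0 µM they were -0.15 to 0.24 for DDX58, -0.058 to 0.38 for IFIH1, -0.31 to 0.12 for EIF2AK2, -0.068 to 0.26 for TBK1, -0.11 to 0.11 for IKBKE and -0.12 to 0.051 for RIPK1. The cause was not tested.

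Replicate numbers did not pair the cultures: deviations of same-numbered libraries from their group means correlated from -0.074 to 0.086 over 9 pairs and those of other pairs from -0.16 to 0.10 over 18. The replicate block gave 2 calls up among the 10 genes at 5 µM, 0 between the doses and 1 for 10 against 0 µM, and 11, 0 and 3 up and 2, 2 and 2 down in the lists. ZBP1, TLR8, ADAD1, ADAD2 and the interferon genes other than IFNE rest on few fragments. So do NLRP3 and TBKBP1 in control, and ENPP1 at 10 µM.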
